A study of Mus musculus with 6 samples.

Results

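The semaphorins, Slits and netrins are families of cues that steer axons, blood vessels and migrating epithelial and mesenchymal cells, and the genes described here are 36 members of these families and of their receptors. They were chosen by name from lists of the 3 families, not by their signal. They comprise 20 ligand genes (6 secreted semaphorins, 9 membrane-bound semaphorins, 3 Slits and 2 netrins) and 16 receptor genes (8 plexins, 2 neuropilins, 2 Robo receptors and 4 netrin receptors). The lists do not hold every family member, and others, such as Sema4f, Sema6c, Plxnb3, Robo3 and Robo4, were counted in a wider list. The arrays held 94 probe sets for the 36 genes among 45037. For each gene 1 value was taken from the probe set with the highest mean, which gave 36 of 18193 named genes.

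RNA came from genital tubercles, the embryonic outgrowth of the penis or clitoris, of mouse embryos at 12.5 days post coitum on a mixed background. All embryos carried the reporter alleles Shhtm1(EGFP/cre)Cjt, in which the Shh locus drives a fusion of green fluorescent protein and Cre recombinase, and Gt(ROSA)26Sortm3(CAG-EYFP)Hze, a yellow fluorescent reporter that Cre switches on. Because Cre acts on DNA, the reporter also stays on in descendants of a cell that once used the Shh locus. After trypsin dissociation, sorting for fluorescence gave a reporter-positive group, labelled urethral epithelium, and a reporter-negative group of the other tubercle cells. Each group held 3 arrays, and each array a pool of male and female littermates, with 3, 5 and 2 embryos in replicates 1, 2 and 3 of either group.

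Class 3 semaphorins are secreted and mostly signal through a neuropilin, which binds the ligand, paired with a plexin, which carries the signal into the cell. The other semaphorins of mammals are held in the membrane and usually bind plexins directly. Slits bind Robo receptors and often repel cells, whereas netrins attract through Dcc and Neo1 and repel through Unc5 receptors. In developing epithelial organs the same cues help set branching, vessel position and the adhesion between epithelium and mesenchyme.

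Signal was uneven across the arrays. The median deposited signal of named probe sets was 2.15 to 8.84 in negative arrays, 4.73 and 3.56 in positive replicates 1 and 2, and 0.34 in positive replicate 3. Background was taken as the brightest bacterial control probe set that had not been spiked in. Of the 36 guidance genes 28 to 33 exceeded it in each negative array, 31 and 22 in positive replicates 1 and 2, and 13 in positive replicate 3. Each comparison is therefore given for all 6 arrays and for the 5 arrays without positive replicate 3. Here and below a gene is set against background by its kept probe set, unless another is named. Values are log2(signal + 16) after quantile normalization, where a value near 4 means almost no signal. Values of single arrays come from the normalization of all 6, and a 5-array difference from a normalization of those 5.

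Marker genes bore out the sort only in part. Shh measured 8.49, 9.78 and 9.92 in positive replicates 1, 2 and 3 and 4.06 to 4.63 in negative arrays. Its 5-array difference was 4.96 (SE 0.39, adjusted p = 4.44e-05, limma). The summed linear signal of 10 epithelial markers was 942 to 2408 in positive and 61.4 to 70.8 in negative arrays. The sum of 10 mesenchymal markers was 2514 to 3121 in negative arrays and 171 and 430 in positive replicates 2 and 3, but 2476 in positive replicate 1, which thus carried mesenchymal transcripts at nearly the level of the negative cells. The sums of 8 erythroid markers were 682 to 1506 against 3133 to 6032, and those of 10 leukocyte markers 64.6 to 164 against 26.8 to 52.8. In the 5 arrays 9 of 10 epithelial markers passed as higher in positive cells, 0 of 10 mesenchymal markers passed, 3 of 10 leukocyte markers passed as higher and 5 of 8 erythroid markers as lower (limma). The leukocyte markers Tyrobp and Aif1 were under background on every array in their brightest probe sets, and no marker was at 0. In bulk RNA of sorted cells, fewer cells of a type and less RNA per cell cannot be told apart. Nothing in the labels says which pools of the groups share a litter, and p-values measure the spread between arrays, which may be partly technical.

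Sema3c, a secreted semaphorin that signals through neuropilins with plexin A or D receptors, was the 1 guidance gene that passed the test, in the 5 arrays only, and it was higher in reporter-positive cells. Its log2 signal was 6.32, 6.73 and 7.42 in positive replicates 1, 2 and 3 and 5.16, 5.14 and 4.83 in negative ones. Every positive array thus lay above every negative array. Without positive replicate 3 the log2 difference was 1.56 (SE 0.31, 95% interval 0.90 to 2.21, adjusted p = 0.0322, limma over 13960 genes), a 2.95-fold change on this scale. In this comparison 84 of the 13960 genes passed, 0.602% (0.552% higher and 0.0501% lower in positive arrays), and 1 of 36 guidance genes did. With all 6 arrays the difference was 1.77 (SE 0.41), with means of 6.82 ± 0.56 against 5.05 ± 0.19 (SD, n = 3 each), and did not pass (adjusted p = 0.497, limma).

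The call for Sema3c rested on few arrays and on the scaling. In the 5 arrays it was lost when negative replicate 1, 2 or 3 was left out (limma adjusted p = 0.0685, 0.0995 and 0.0764) and without positive replicate 2 (0.482). Without positive replicate 1 it was below the threshold (0.0276). Leaving out either of these positive arrays leaves 1 in its group, which is assumed to vary like the negative arrays, so those p-values rest on the spread of the negative arrays alone. With any of the 5 left out the difference was between 1.39 and 1.82. It was also lost with the mean of both probe sets of the gene, where the difference was 0.99 (limma adjusted p = 0.106). With signals left as deposited the 5-array difference was 0.92, and over all alternatives the adjusted p ran from 0.00248 to 0.9999 (limma). The lowest came with pool size as a block, a fit to which negative replicate 3, the only pool of its size, contributes nothing.

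Deposited signals show what normalization did for this gene. Sema3c read 59.36, 57.93 and 2.92 in positive replicates 1, 2 and 3 and 33.5, 43.25 and 4.76 in negative ones. Before normalization positive replicate 3 was therefore the lowest of the 6. Set against the median named probe set of its own array, Sema3c stood 12.6, 16.3 and 8.59 times above it in positive arrays and 4.40, 4.89 and 2.21 times in negative arrays, so on that ratio the groups did not overlap either. In positive replicates 2 and 3 that median, 3.56 and 0.34, was itself under the background of 4.41 and 1.12. All 6 Sema3c readings exceeded background, at 13.3, 13.1 and 2.61 times in positive replicates 1, 2 and 3 and 6.25, 5.22 and 2.34 times in negative ones. Against background the groups thus overlapped, with positive replicate 3 under negative replicates 1 and 2. The dimmer second probe set measured 4.61, 4.71 and 4.38 in positive and 4.31, 4.23 and 4.33 in negative arrays, a 5-array difference of 0.41. Sema3c was above all negative arrays both in positive replicate 1, with its mesenchymal sum of 2476, and in replicates 2 and 3, with 171 and 430. The sums of leukocyte, epithelial and endothelial markers were also above the negative range in the same 3 arrays, and their part in the difference was not tested. Of the 10 endothelial markers 4 were under background on every array.

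**Figure D1:**
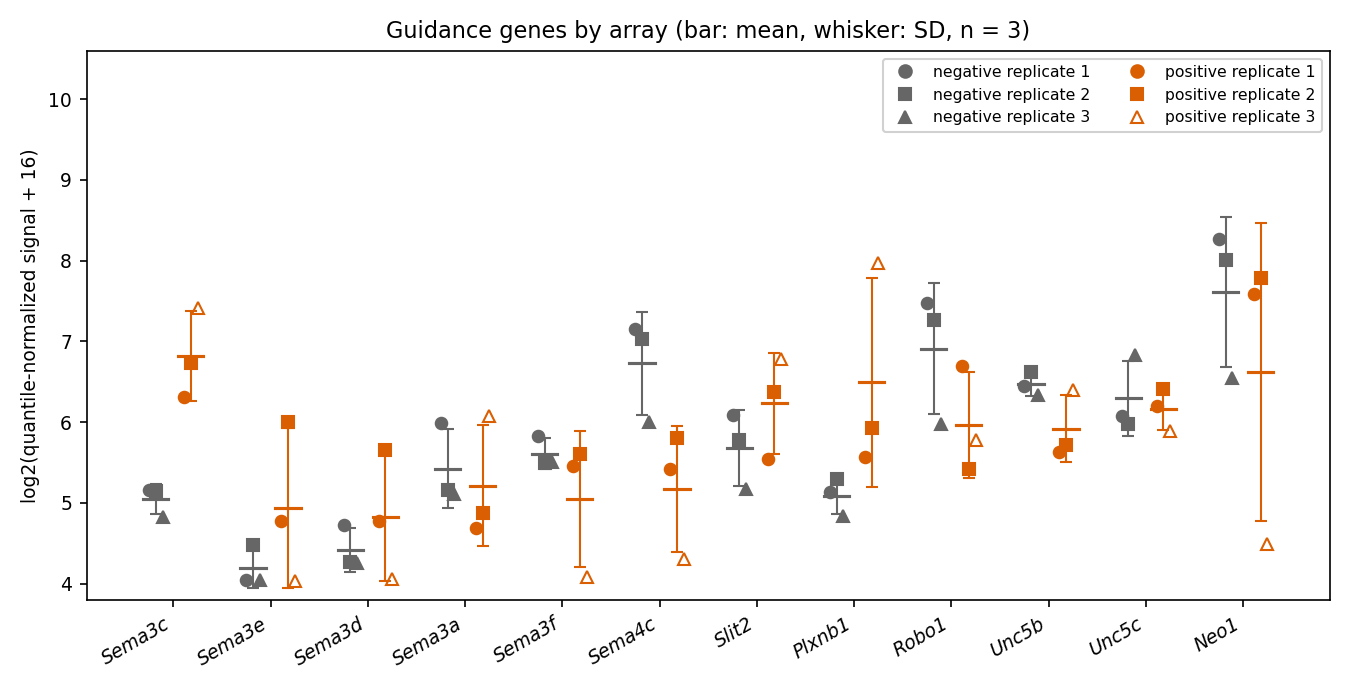
Log2(quantile-normalized signal + 16) of 12 guidance genes in each array, with negative arrays in grey and positive arrays in orange, and positive replicate 3 as open triangles. Horizontal bars are means and whiskers SD of 3 arrays. Sema3c lies at 6.32 to 7.42 in positive and 4.83 to 5.16 in negative arrays, while the positive arrays of Neo1 spread from 4.49 to 7.78.

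Sema3e, which binds Plxnd1 without a neuropilin and is best known for repelling vessels, had the next highest difference in the 5 arrays. It measured 4.77, 5.998 and 4.03 in positive replicates 1, 2 and 3 and 4.05, 4.47 and 4.04 in negative ones. Positive replicate 3 lay just under the lowest negative array, and the 2 others were above all negative arrays. The 5-array difference was 1.32 (SE 0.33, 95% interval 0.62 to 2.02) and did not pass (adjusted p = 0.104, limma), nor did that of 0.75 in 6 arrays (adjusted p = 0.725, limma). Sema3e exceeded background in 1 of 3 negative and 2 of 3 positive arrays, and without positive replicate 2 its 5-array difference was 0.71. Without positive replicate 1 it was 2.03 and passed (adjusted p = 0.00752, limma), with positive replicate 2 then alone in its group and assumed to vary like the negative arrays.

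The promoters of Sema3c and Sema3e are shown because these ligands had the highest positive differences of the 36 genes in the 5 arrays. In the 6 arrays Plxnb1 came between them. Both genes lie on chromosome 5, as do Sema3a and Sema3d. Each window runs from 250 bases before to 50 after the annotated start, from RefSeq on GRCm38.p6, 5′ to 3′ on the plus strand, with matches to the GC box letters GGGCGG on either strand in capitals. The Sema3c window is chr5:17574566-17574865 and the Sema3e window chr5:14025026-14025325.
Sema3c: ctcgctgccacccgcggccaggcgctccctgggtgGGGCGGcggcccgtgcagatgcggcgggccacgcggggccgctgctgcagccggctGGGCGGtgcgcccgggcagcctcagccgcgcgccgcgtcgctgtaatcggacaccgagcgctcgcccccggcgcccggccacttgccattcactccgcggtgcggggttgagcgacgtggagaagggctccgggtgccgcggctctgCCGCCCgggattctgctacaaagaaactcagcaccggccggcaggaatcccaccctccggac
Sema3e: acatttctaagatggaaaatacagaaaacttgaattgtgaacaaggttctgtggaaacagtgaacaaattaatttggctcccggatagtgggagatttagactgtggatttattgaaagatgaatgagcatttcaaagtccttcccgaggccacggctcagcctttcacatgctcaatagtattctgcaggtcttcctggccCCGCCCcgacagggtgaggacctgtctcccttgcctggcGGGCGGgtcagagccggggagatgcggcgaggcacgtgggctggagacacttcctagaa
The Sema3c window is 75.7% G and C with 42 CpG dinucleotides and 3 GC boxes, and the Sema3e window 50.7% with 11 and 2. Across 32851 promoter windows of the same length the median was 52.7% with 7 CpG dinucleotides, and 35.7% held a GC box. Neither window held the forkhead core TGTTTAC, the TATA box TATAAA or the E-box CACCTG on either strand, which 3.65%, 13.6% and 20.2% of all windows did. Such matches describe these letters and no more. RefSeq windows were at hand for 28 of the 36 genes. These 39 windows had a median of 65% G and C, and 27 of them held a GC box.

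The other secreted semaphorins did not pass. Sema3d measured 4.78, 5.66 and 4.05 in positive replicates 1, 2 and 3 and 4.73, 4.27 and 4.25 in negative ones, a 5-array difference of 0.88 (SE 0.30, adjusted p = 0.325, limma). Sema3a, a classical repellent read by Nrp1 with plexin A, measured 4.70, 4.87 and 6.08 in positive and 5.99, 5.17 and 5.12 in negative arrays. Both 5-array positive values of Sema3a were below all negative ones, with a difference of -0.69 (SE 0.32, adjusted p = 0.541, limma). Positive replicate 3 was the highest of all after normalization, although its deposited reading of 1.9 was the lowest. Sema3f, which acts mainly through Nrp2, measured 5.46 and 5.61 in positive replicates 1 and 2 and 5.49 to 5.83 in negative arrays, a difference of -0.08 (95% interval -0.71 to 0.56, limma). In positive replicate 3 its reading fell below background, at 4.09. The kept Sema3b probe set exceeded background in positive replicate 2, at 4.82, and in no negative array. Its other 2 probe sets exceeded background, narrowly, in negative replicates 1 and 3 and positive replicate 3, so no fold is given. Of the 6 secreted semaphorins 1 passed as higher in the 5 arrays (beside 0.552% of all genes) and none passed as lower (beside 0.0501%).

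Among membrane-bound semaphorins Sema4c, a ligand of Plxnb2, had the lowest difference of all 36 genes. It measured 5.42, 5.80 and 4.30 in positive replicates 1, 2 and 3 and 7.16, 7.03 and 5.996 in negative ones. Every positive array lay below every negative array, although negative replicate 3 was close to positive replicate 2. The difference was -1.16 in 5 arrays (SE 0.39, 95% interval -1.99 to -0.33, adjusted p = 0.318, limma) and -1.55 in 6 (SE 0.51, adjusted p = 0.725, limma), so Sema4c did not pass in either. Positive replicate 3 was below background for this gene. With mesenchymal marker sums of 2476, 171 and 430, positive replicates 1, 2 and 3 had Sema4c signals of 5.42, 5.80 and 4.30. The part of mesenchymal transcripts in the Sema4c difference was not tested. Sema4c has a single probe set on the array, so no further reading was at hand. Fits with array weights called Sema4c lower, as did a block for pool size in the 5 arrays (limma adjusted p = 0.00251, 0.0233 and 0.00239 for weights in 6 arrays, weights in 5 arrays and the block). To the block fit, with a difference of -1.54, negative replicate 3 contributes nothing, as the only pool of its size there. That array was the negative one closest to the positive arrays for Sema4c.

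The remaining listed membrane-bound semaphorins had 5-array differences of -0.18 to 0.34 in their kept probe sets, and none passed. Further ones, such as Sema4f and Sema6c, were counted in the wider list below. Sema4d, the ligand of Plxnb1, measured 5.10 and 5.12 in positive replicates 1 and 2 and 4.49 to 5.09 in negative arrays after normalization of the 5. These positive values were the highest of the 5 arrays, by a margin far smaller than the spread among the negative ones. Sema5a, which carries thrombospondin repeats, ranged most, with 6.28, 4.25 and 4.18 in positive replicates 1, 2 and 3 and 5.98, 5.65 and 4.62 in negative ones. In this kept probe set positive replicate 1, with its mesenchymal transcripts, was the highest array and the 2 other positive arrays the lowest. Another Sema5a probe set, above background on 4 of the 5 brighter arrays, read 4.67, 4.01 and 4.02 in positive arrays. It read 5.36, 4.85 and 4.81 in negative ones, so every positive array lay below every negative one, with a 5-array difference of -0.75. The part of mesenchymal transcripts in these Sema5a values was not tested. For Sema4a another probe set became the brightest in the 5 arrays, with a difference of 0.07, while the one kept in the 6 arrays gave -0.15 there. Sema7a, which is tethered by a lipid anchor and binds Plxnc1, exceeded background in 1 negative array and in no positive one, and fell under the signal filter of the 6-array test.

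Plexins carry the semaphorin signal, and Plxnb1 was the listed plexin with the highest difference in 6 arrays and in 5. It measured 5.57, 5.93 and 7.98 in positive replicates 1, 2 and 3 and 5.13, 5.29 and 4.84 in negative ones. The groups did not overlap, and positive replicate 3 stood far above the rest. Its deposited reading, 3.72, was the lowest of the 6 arrays. That was 3.32 times background, beside 2.37 to 6.34 times in negative arrays, and 10.9 times the median of its own array, the highest such ratio. The difference was 0.71 in 5 arrays (SE 0.30, 95% interval 0.07 to 1.34, adjusted p = 0.480, limma) and 1.40 in 6 (adjusted p = 0.725, limma), and neither passed. In the 6 arrays the sign was not stable, with -0.24 for signals as deposited and -0.05 after median centring. The second probe set of Plxnb1 read 4.05 in positive replicate 3, below all other arrays, against 7.98 for the first, so the 2 disagree in the dim array.

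The other listed plexins had 5-array differences of -0.47 for Plxna1 to 0.54 for Plxna2, and 7 of the 8 listed plexins were positive without any passing. Plxnb3 was counted in the wider list below. Plxnb2, the receptor of Sema4c, measured 5.82, 6.14 and 6.74 in positive replicates 1, 2 and 3 and 5.72, 5.65 and 6.23 in negative ones, with a difference of 0.12 (95% interval -0.58 to 0.82, limma). Its values interleave between the groups. Plxnd1, the receptor of Sema3e, measured 4.25 to 4.44 in positive and 4.07 to 4.48 in negative arrays and exceeded background in 3 of the 6 arrays, so a difference was not detectable at this signal. Endothelium is a known site of Plxnd1. The summed signal of 10 endothelial markers was 38.5 to 49.2 in positive and 33.2 to 37.4 in negative arrays, and 4 of them, Pecam1, Tie1, Sox17 and Sox18, were under background on every array.

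Neuropilins, the binding receptors of class 3 semaphorins, were measured in both groups. Nrp1 measured 6.09, 5.54 and 4.14 in positive replicates 1, 2 and 3 and 5.86, 5.75 and 5.48 in negative ones. Positive replicate 3 was under background. Positive replicate 1 was above the negative range and replicate 2 inside it, with a 5-array difference of 0.12 (95% interval -0.56 to 0.81, adjusted p = 0.943, limma). Nrp2 measured 5.89, 5.09 and 6.67 in positive and 6.14, 5.96 and 5.74 in negative arrays. Its 5-array difference was -0.48 (95% interval -1.20 to 0.24, adjusted p = 0.723, limma). Positive replicate 1 was inside the negative range, replicate 2 below it and replicate 3 above it. In deposited units positive replicate 3 read 2.2 for Nrp2, the lowest of the arrays. Thus Sema3c, the ligand, passed as higher in positive cells in the 5 arrays only. For its receptors Nrp1, Nrp2, Plxnd1 and the listed plexin A genes no difference passed. Whether the ligand differed from its receptors was not tested.

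**Figure D2:**
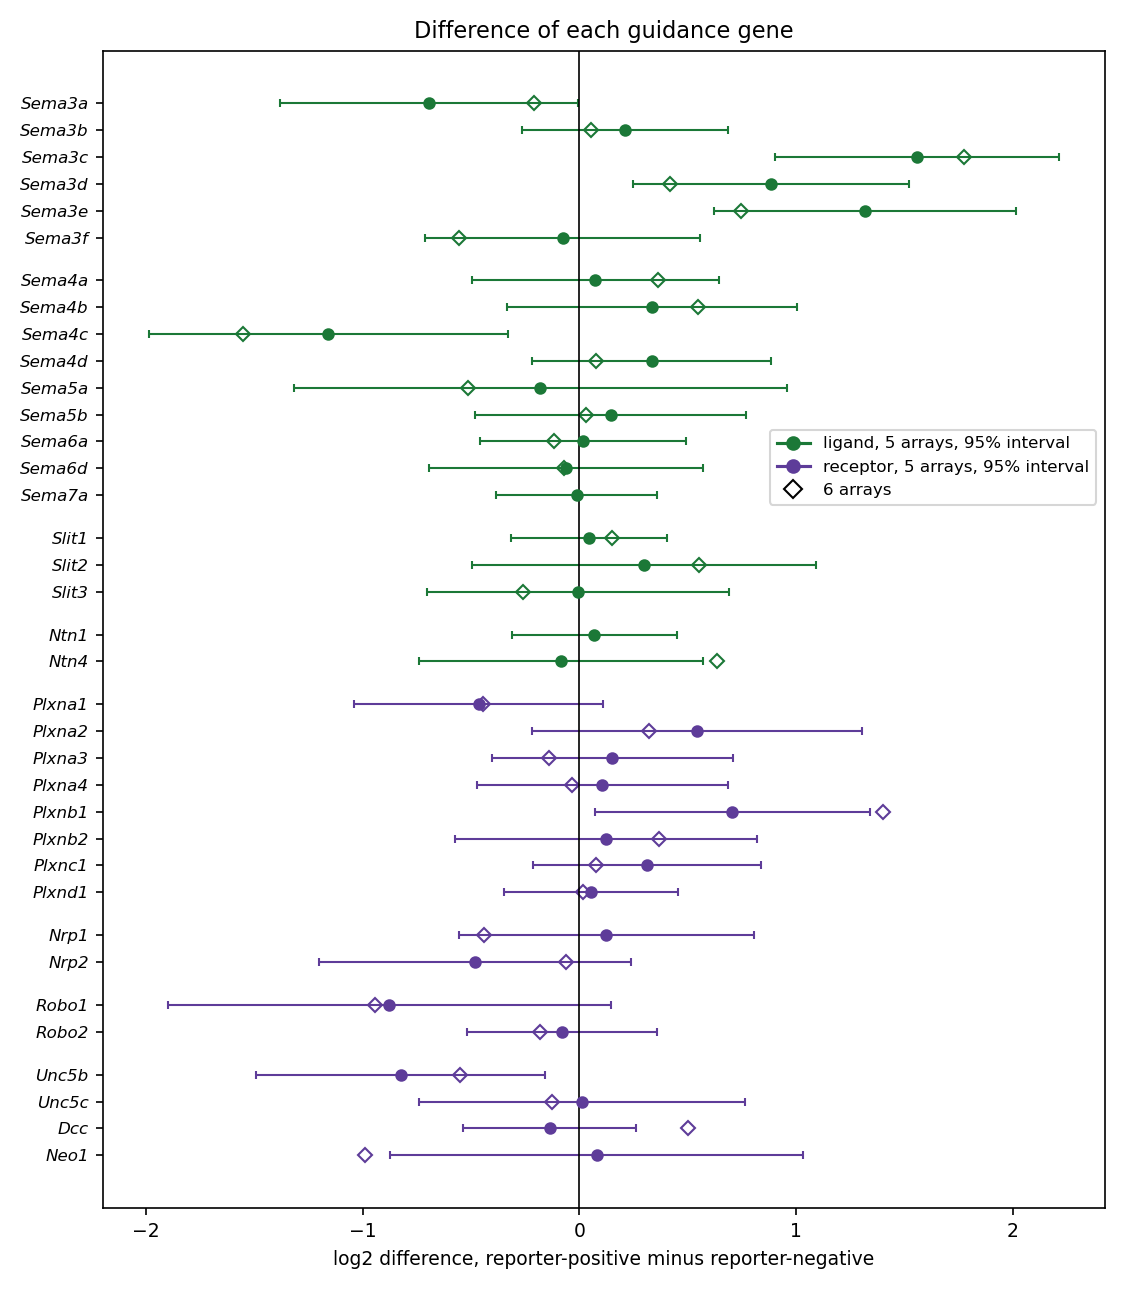
Log2 difference, reporter-positive minus reporter-negative, of the 36 genes by role, with ligands in green and receptors in purple. Filled circles with 95% limma intervals are the 5 arrays without positive replicate 3 and open diamonds all 6 arrays. Sema3c at 1.56, Sema3e at 1.32 and Sema4c at -1.16 lie farthest from 0 in the 5 arrays, and only Sema3c passed the adjusted threshold.

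Slit2, the Slit with signal above background on all 6 arrays, did not differ beyond its spread. It measured 5.55, 6.38 and 6.78 in positive replicates 1, 2 and 3 and 6.09, 5.79 and 5.17 in negative ones, a 5-array difference of 0.30 (95% interval -0.50 to 1.09, adjusted p = 0.870, limma). The sign turned to negative with signals as deposited or median-centred. It also turned in the 5 arrays without positive replicate 2, at -0.14, against 0.75 without positive replicate 1. Robo1, its receptor, measured 6.70, 5.43 and 5.78 in positive and 7.48, 7.27 and 5.98 in negative arrays. Positive replicate 1 lay above negative replicate 3, so the groups overlap, and the difference of -0.88 (SE 0.48) did not pass (adjusted p = 0.633, limma). With a block for pool size Robo1 was called lower in the 5 arrays, a fit to which negative replicate 3, the only pool of its size there, contributes nothing. Slit1, Slit3 and Robo2 had 5-array differences of 0.04, -0.01 and -0.08, and each exceeded background in 1 of 3 positive arrays.

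Netrin ligands gave little signal. Ntn1, which in the nervous system attracts axons through Dcc, exceeded background in 1 negative array with its kept probe set and in positive replicate 1 with its second. It was under the signal filter of the 6-array test. Ntn4, a netrin that binds laminins of basement membranes, measured 5.24, 4.31 and 6.89 in positive replicates 1, 2 and 3 and 5.01, 4.62 and 4.92 in negative ones. Its positive arrays held both the highest and the lowest value, and its 5-array difference was -0.08 (95% interval -0.74 to 0.57, limma).

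The kept probe sets of the netrin receptors exceeded background on all arrays, apart from Dcc in 3 of the 6 arrays and Neo1 in positive replicate 3. Unc5b, a repulsive receptor also made by vessels, measured 5.64, 5.72 and 6.40 in positive replicates 1, 2 and 3 and 6.44, 6.63 and 6.34 in negative ones. Positive replicates 1 and 2 were under all negative arrays, with a 5-array difference of -0.83 (SE 0.31, 95% interval -1.49 to -0.16) that did not pass (adjusted p = 0.406, limma), and positive replicate 3 lay inside the negative range. The second Unc5b probe set gave -0.48. Unc5c, a further repulsive receptor, measured 6.20, 6.41 and 5.89 in positive and 6.07, 5.98 and 6.83 in negative arrays, a difference of 0.01 (95% interval -0.74 to 0.77, limma). Its second probe set instead read 5.20, 6.13 and 5.93 against 4.97, 5.01 and 4.57, with every positive array above every negative one and a 5-array difference of 0.88, so the 2 Unc5c probe sets disagree.

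Neo1, the neogenin receptor of netrins and repulsive guidance molecules, showed how far the dim array moved a value. It measured 7.59, 7.78 and 4.49 in positive replicates 1, 2 and 3 and 8.27, 8.01 and 6.55 in negative ones. The positive arrays with signal were within the negative range, and the kept probe set was under background in positive replicate 3, where a dimmer one exceeded it. The difference was 0.08 in 5 arrays (95% interval -0.87 to 1.03, limma) and -0.99 in 6 (adjusted p = 0.727, limma). A second bright Neo1 probe set gave -0.90 in the 5 arrays, with 5.78 and 5.00 in positive replicates 1 and 2 and 5.43 to 6.85 in negative arrays. Dcc, the attractive netrin receptor of neurons, measured 4.19 to 4.58 in negative arrays and 4.31, 4.22 and 6.14 in positive replicates 1, 2 and 3. In deposited units that last reading of Dcc was 1.93, where 9.71 and 13.1 in negative replicates 2 and 1 had normalized to 4.39 and 4.58. Against the median of its own array it was also the highest, at 5.68 times beside 0.47 to 1.72 times in the others. Against background it was 1.72 times, under the 2.44 times of negative replicate 1, so its high place depends on the scaling. Of 8 measured nerve and Schwann cell markers Foxd3 and Tubb3 were under background on every array, and the sums were 36.2 to 125 in positive and 90.0 to 151 in negative arrays.

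**Figure D3:**
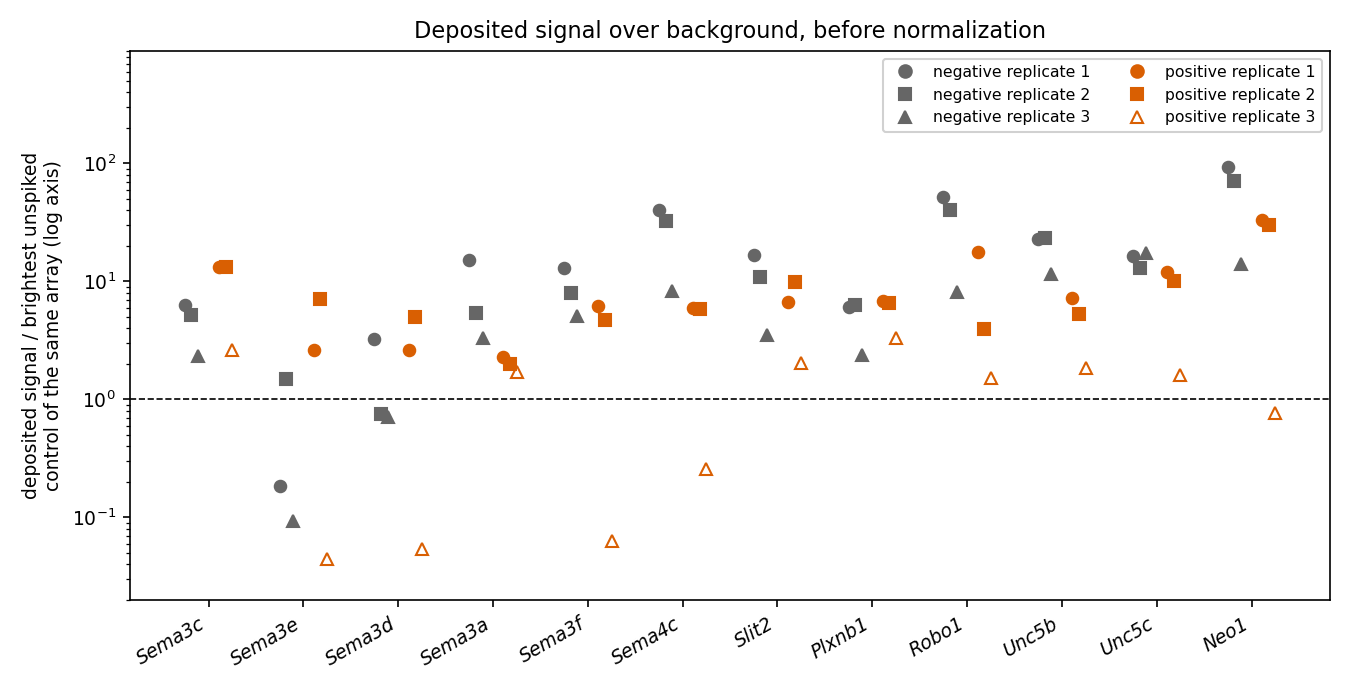
Deposited signal of the same 12 genes divided by the brightest unspiked control of its array, on a log axis, before any normalization, with symbols as in the plot of log2 values. The dashed line at 1 is background. Positive replicate 3 lies lowest or close to lowest for most genes and under background for Sema3e, Sema3d, Sema3f, Sema4c and Neo1.

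Ligands and receptors did not separate as classes. Among the 5 arrays 12 of 20 ligands and 10 of 16 receptors had a positive difference, against 49.6% of all genes tested. The median log2 difference was 0.06 for ligands, 0.07 for receptors and -0.00 for all genes. In the 6 arrays, where 18 ligands and 16 receptors were tested, 11 and 6 were positive against 47.2% of all genes, with medians of 0.06 and -0.09 beside -0.03 over all genes. The ligand median minus the receptor median was 0.16 in 6 arrays and -0.01 in 5. Array by array this value was 0.31, -0.10 and 0.15 in positive replicates 1, 2 and 3, and thus of mixed sign. The median absolute difference in the 5 arrays was 0.79 for the 6 secreted semaphorins, 0.14 for the 9 membrane-bound ones and 0.23 for the 8 plexins, beside 0.20 over all genes.

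**Figure D4:**
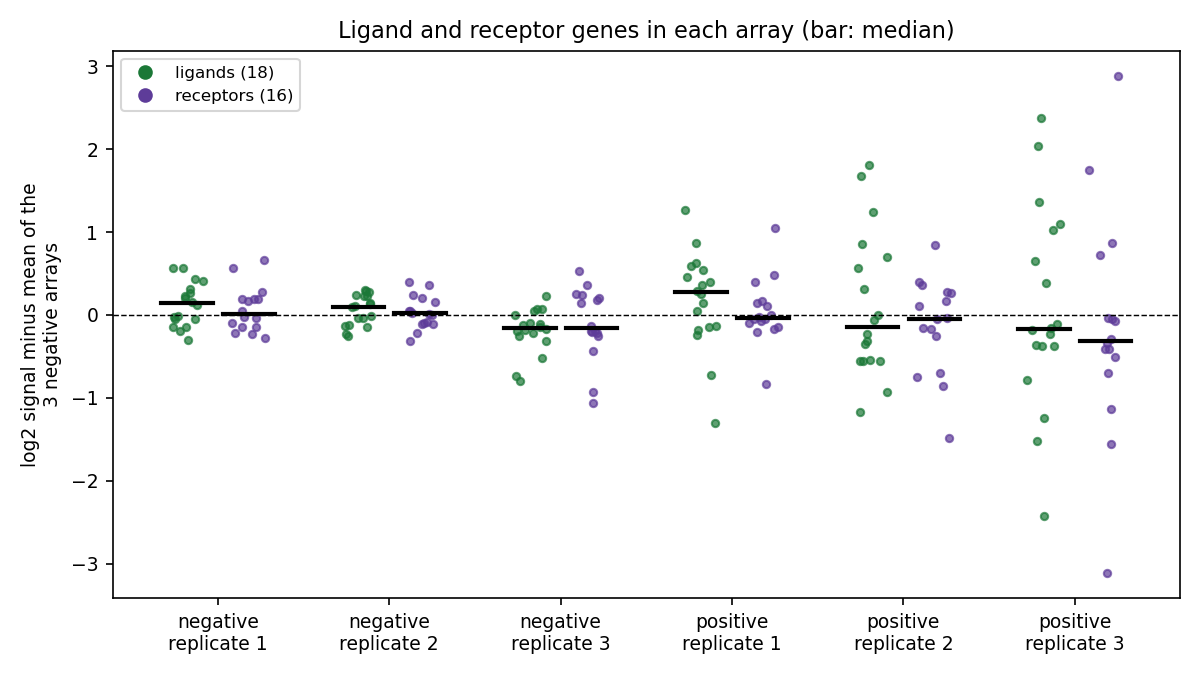
Log2 signal of 18 tested ligand genes (green) and 16 receptor genes (purple) in each array, minus the mean of the 3 negative arrays, with black bars at the median. Medians lie between -0.31 and 0.27, and the genes scatter most widely in positive replicate 3, from -3.12 to 2.89.

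In the 5 arrays the 36 genes held about as large a share of separated values as the array at large, while other shares lay under or over it. Positive and negative values did not overlap in the 5 arrays for 8 of 36 genes, 22.2%, beside 24.6% of all genes. Sema3c, Sema3d, Sema3e, Sema4d and Plxnb1 were the 5 with positive arrays above (13.2% of all genes), and Sema3a, Sema4c and Unc5b the 3 with them below (11.4% of all genes). With 6 arrays there were 3 of 34, 8.82%, beside 13.3% of all genes. These were Sema3c and Plxnb1 above (6.29% of all genes) and Sema4c below (6.99% of all genes). A log2 difference of 1 or more was measured in the 6 arrays for the same 3 genes. Of these 2 were higher (5.88%) and 1 lower (2.94%), beside 1.78% and 3.08% of all genes. In the 5 arrays such a difference was measured for Sema3c and Sema3e, higher (5.56%), and Sema4c, lower (2.78%), beside 1.45% and 1.05%. No guidance gene passed in the 6 arrays (limma), where 0.0142% of genes did. There 3 of 34, 8.82%, had an unadjusted limma p under 0.05 beside 5.17% of all genes. For the 5 arrays these were 7 of 36, 19.4%, beside 9.15%.

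A wider list of 63 genes of the same pathways, with other ligands, other receptors and cytoplasmic effectors such as collapsin response mediators, Mical oxidases and Slit-Robo GTPase activators, gave no call. Of these 60 could be read from a probe set naming no other gene, and 54 entered each comparison. None passed in the 6 arrays, with 4 at an unadjusted p under 0.05 (7.41% beside 5.17% of all genes), and none in the 5 arrays, also with 4 (beside 9.15%; limma, lowest adjusted p = 0.120 in the 5 arrays). Of the 54 tested there, 30 had a positive difference (55.6% beside 49.6% of all genes), the median was 0.04, and 11 had no overlap between positive and negative arrays (20.4% beside 24.6%).

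Probe sets of 1 gene did not always point the same way. Of the 36 genes 31 had several, and for 15 of them at least 1 further probe set had the opposite sign in the 5 arrays. For 7 of these, Neo1, Nrp1, Nrp2, Plxna3, Sema3a, Sema4a and Sema5b, the opposing probe set exceeded background on at least 3 of the 5 arrays. With the kept probe sets 9 genes exceeded background on all 6 arrays, Sema3a, Sema3c, Slit2, Plxnb1, Plxnb2, Nrp2, Robo1, Unc5b and Unc5c, and in the 5 brighter arrays 18 did. For the remaining genes the kept probe set gave only an upper limit in at least 1 array.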

How the data were processed

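The authors deposited 1 intensity per probe set and array on a linear scale; per the labels, biotin-labelled total RNA was hybridized, and GCOS is named without a version in the submitters' processing notes for 1 sample. How probes were summarized and scaled is not given in the sources used here. From 45101 probe sets 64 controls were set aside. The rest were quantile normalized and transformed to log2(signal + 16), which understates changes of dim genes. Normalization also stretches low readings of a dim array. Probe sets with 1 gene (34945; 932 had several, 9160 none) were named through the platform table and RefSeq GRCm38.p6 identifiers (34741 matched). Genes above the 30th percentile of mean signal were tested in R 4.3.3 with limma 3.58.1 (lmFit, then eBayes allowing for an intensity trend). P-values were adjusted over all genes by Benjamini and Hochberg, with a threshold of 0.05. The steps were tested on simulated data. The number of arrays limits the precision.

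Members and lists were chosen with earlier results of these data known. Genes were given array by array if they passed, did not overlap between groups or differed by 1 or more, together with the 2 ligands and 2 receptors of smallest 5-array difference among genes above background on all 5 brighter arrays (Sema3f, Slit2, Unc5c and Neo1) and binding partners of either. Sema3a, Sema3b, Sema3d, Sema5a, Unc5b, Dcc and second probe sets were picked after their values were seen. Alternatives covered scaling, pseudocounts of 4 and 64, probe set choice, filter, trend, array weights, a pool-size block and each array left out.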

Additional observations from a re-analysis of the deposited data

How the results depend on the processing

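No guidance gene was called in the 6 arrays, and in 13 of 15 alternatives (limma) the count stayed at 0. Array weights gave 4 (Sema3c, Sema3d and Sema3e higher, Sema4c lower), and leaving out 1 array gave 0 to 1. In the 5 arrays the count of 1 became 0 with values as deposited, with median centring, with the mean of probe sets, without the filter on low signal and without the intensity trend. It became 3 with array weights (Sema3c, Sema3e and Sema4c) and 4 with pool size as a replicate block (these and Robo1), and leaving out 1 array gave 0 to 2. Over all genes the count of calls ran from 0 to 480 around 2 in the 6 arrays and from 0 to 562 around 84 in the 5. The block changed no call of a guidance gene in the 6 arrays, and in the 5 arrays it drew nothing from negative replicate 3. Equal pool size is no proof of a shared litter, and deviations from the group mean correlated at 0.127, 0.033 and 0.109 between arrays of equal pool size. The ligand minus receptor median of 0.16 in 6 arrays ran from -0.0109 to 0.40 with 1 array left out. The 5-array value of -0.01 became 0.18 with values as deposited and with median centring, and -0.0781 to 0.36 with 1 array left out. Among the 8 genes followed through every alternative none that was called changed sign, and 27 of 232 recomputed differences, all of them uncalled, did. Values as deposited moved the median of all genes by -0.48 in 6 arrays and -0.24 in 5, and median centring by -0.28 and -0.14, so differences under these settings are to be read against that shift. Where a count moved, the cause was not tested. Alternatives for single genes in the 5 arrays were added after seeing the data. Low signal limits Sema3b, Sema7a, Slit1, Ntn1, Dcc and Plxnd1, for which a difference could not be detected. It also limits Sema3d, Sema3e, Sema5b and Sema6a, whose kept probe sets exceeded background on 3 of the 6 arrays.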
